A study of Mus musculus with 6 samples.

Results

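The genes described here are 32 genes of Schwann cells and of neural cell adhesion, out of 55536 annotated genes, measured in stromal cells of injured mouse quadriceps muscle. The list was chosen from genes whose difference between the p16+ and p16- libraries was already known, so the differences of its members are given as a description and without a test. They were grouped by role into 6 genes of the Schwann cell lineage, 10 of myelin, 5 of non-myelinating or immature Schwann cells, 2 potassium channels, 4 adhesion molecules and 5 further genes. Of the 32, 31 passed the filter on low counts. The exception was Pmp2, a lipid-binding myelin protein, with 7 counts in p16+ replicate 3 and 0 in the other 5 libraries, and 86.9% of its exonic length is shared with the gene model Gm37389.

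The study sorted stromal cells by a CD45-CD31-CD29+ gate and split them by a tdTomato reporter of p16, a product of Cdkn2a that blocks the cell cycle and often marks senescent cells. All animals carried the reporter on the C57Bl/6 strain, and the groups are 3 libraries of tdTomato-positive (p16+) and 3 of tdTomato-negative (p16-) cells. Per the labels' protocols, part of the quadriceps was removed on both sides at 10 weeks of age, the gap received 50 uL of saline, a matrix freed of cells or 30 mg of polycaprolactone, and muscle was taken 1 or 6 weeks later. The series' design text names a foreign body fibrosis model, and the filler and harvest time of each library are not given in the sources used here. Whether the replicates are separate animals is not stated in the labels, and p-values therefore reflect the spread among these libraries, which may be technical.

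Totals lay between 35253406 and 39103909 counts per library. Cdkn2a stood at 6.90, 8.82 and 7.73 CPM (counts per 1000000 counts of a library, its size scaled by TMM) in p16+ replicates 1 to 3 and at 2.41, 1.76 and 2.20 in p16- replicates 1 to 3, a log2 fold change of 1.88 (SE 0.22) with an adjusted p of 2e-05 in edgeR's quasi-likelihood test. All levels below are given in this order of libraries, and all log2 fold changes are p16+ over p16-. The fibroblast collagen gene Col1a2 had a mean of 20863 CPM in p16- and 35632 CPM in p16+, while the leukocyte gene Ptprc, which encodes CD45, had 4.88 and 7.76 CPM. The endothelial gene Pecam1, which encodes CD31, had 3.34 CPM in p16- and 6.73 CPM in p16+. Of 15903 genes tested, 1278 were called lower and 1382 higher in p16+ at an adjusted p under 0.05, and the median log2 fold change of all of them was -0.01.

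Schwann cells are the glia of peripheral nerves. They arise from the neural crest under the transcription factor Sox10, depend on neuregulin signals from axons received by the Erbb3 and Erbb2 receptors, and either wrap large axons in myelin or, as non-myelinating cells, ensheathe bundles of small ones. After nerve injury, as in cut muscle, they leave the myelinating state, clear debris and guide regrowing axons with adhesion molecules and growth factors.

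**Figure D1:**
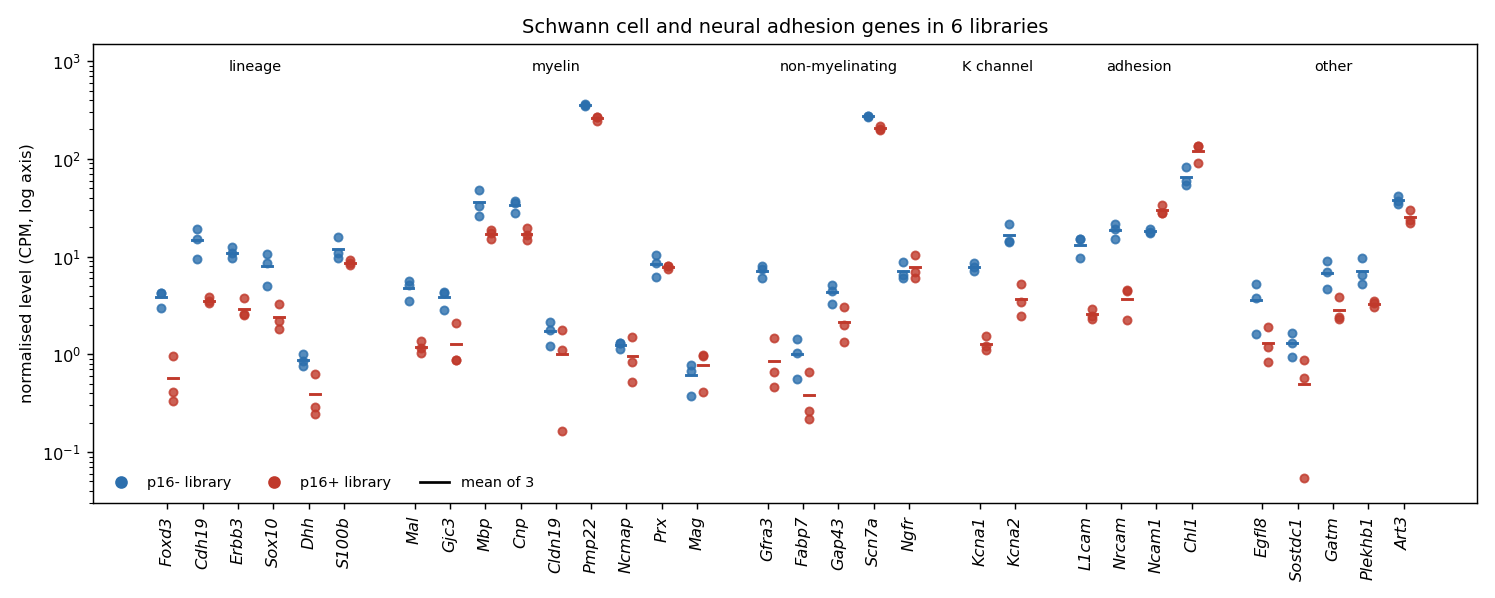
Level of each of the 31 tested genes in the 6 libraries, in CPM on a log axis, grouped by role and ordered by log2 fold change within a role. Points are libraries (blue p16-, red p16+) and dashes the mean of 3. The p16+ points lie below the p16- points for 22 genes and above them for Ncam1 and Chl1.

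Of the 31 members tested, 27 had a lower estimate in p16+ than in p16- cells. Of these 31, 20 were called lower, 2 were called higher and 9 were not called, where over all tested genes 8.04% were called lower and 8.69% higher. The libraries of the groups did not overlap for 22 members on the lower side and for 2 on the higher side, against 16.5% and 16.6% of all tested genes. Because the members were chosen on this contrast, nothing is read from these counts. The median log2 fold change of the members was -1.16, with a range from -3.07 for Gfra3 to 0.90 for Chl1, and 19 were at or below -1. In RNA from sorted bulk cells, fewer Schwann cells and less of these RNAs per cell cannot be told apart.

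By role, the median log2 fold change was -1.82 for the 6 lineage genes, -0.77 for the 9 tested myelin genes, -1.0 for the 5 non-myelinating genes, -2.39 for the 2 potassium channels, -0.80 for the 4 adhesion genes and -1.26 for the 5 further genes. Calls on the lower side numbered 4 of 6, 5 of 9, 3 of 5, 2 of 2, 2 of 4 and 4 of 5 in the same order. The 2 calls on the higher side, Ncam1 and Chl1, were both adhesion genes.

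The members differed widely in level. Per kilobase of exonic length (RPKM, CPM divided by that length), Pmp22 stood at 150.8 in p16- and 110.6 in p16+ cells and Scn7a at 37.0 and 28.0. Mbp, a defining gene of myelin, was at 4.25 and 2.03 RPKM, Sox10 at 2.64 and 0.794, and Mag at 0.151 and 0.192. The members do not share a level. Sox10, Foxd3 and Erbb3, used together as markers of glia from the neural crest, were scarce, with Foxd3 at 1.64 RPKM and Erbb3 at 1.83 RPKM in p16-. Art3 at 9.66 RPKM and Chl1 at 5.29 RPKM in p16- were above them per length.

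Sequence upstream of the start site is shown for the 4 members with the largest differences that had an entry in the RefSeq promoter table, since these genes were low together in p16+ cells. Entries were found for 22 of the 32 members, with 33 windows of 300 bases (250 before and 50 after a start). All 4 are from GRCm38.p6, read 5′ to 3′ on the strand of the gene, and hold bases outside annotated exons up to the base before the RefSeq start, which left 172 of 250 bases for Kcna2. They are Foxd3 at chr4:99656049-99656298 (plus strand), L1cam at chrX:73880835-73881084 (minus strand), Nrcam at chr12:44328635-44328884 (plus strand) and Kcna2 at chr3:107101395-107101566 (plus strand). The L1cam start is 1 of its 2 RefSeq starts and lies 15271 bases into the gene. The Kcna2 start lies 421 bases into the gene, so its printed sequence is inside the gene. Capitals mark matches to ACAANG, where N is any base, searched on both strands. This string is a loose form of the core bound by SOX proteins, and a match need not be that core.
Foxd3: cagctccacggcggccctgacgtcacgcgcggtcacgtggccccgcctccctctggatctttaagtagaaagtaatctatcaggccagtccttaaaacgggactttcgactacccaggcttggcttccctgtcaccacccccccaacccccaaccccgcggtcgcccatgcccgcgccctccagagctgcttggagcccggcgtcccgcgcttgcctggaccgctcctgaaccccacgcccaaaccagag
L1cam: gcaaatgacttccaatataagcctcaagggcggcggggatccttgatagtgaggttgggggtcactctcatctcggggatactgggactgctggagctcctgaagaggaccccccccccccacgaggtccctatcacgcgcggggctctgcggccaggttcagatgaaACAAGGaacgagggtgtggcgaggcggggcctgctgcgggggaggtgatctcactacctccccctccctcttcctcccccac
Nrcam: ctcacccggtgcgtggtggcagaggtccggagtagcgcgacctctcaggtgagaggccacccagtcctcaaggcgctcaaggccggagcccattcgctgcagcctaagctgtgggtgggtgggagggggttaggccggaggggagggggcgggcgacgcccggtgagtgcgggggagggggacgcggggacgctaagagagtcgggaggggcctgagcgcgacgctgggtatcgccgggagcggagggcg
Kcna2: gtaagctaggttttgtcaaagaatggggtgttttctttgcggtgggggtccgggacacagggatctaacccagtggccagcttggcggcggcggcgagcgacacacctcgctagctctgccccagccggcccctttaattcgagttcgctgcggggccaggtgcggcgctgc
The string ACAANG occurred 1 time in these sequences, in L1cam as ACAAGG, 82 bases before the start. Over the whole windows it was found in 16 of the 33 of the members (48.5%) and in 13550 of the 32851 windows of all genes (41.2%). The motif GCGNGGGCG of EGR proteins, the family of the myelin regulator Egr2, was found in 1 of the 33 (3.03%) and in 1824 of all windows (5.55%). A match of letters is a description and not a binding site, and overlaps between the motifs were not counted.

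The transcription factors, receptor and markers of the Schwann cell lineage had lower estimates in p16+ cells in each of the 6 genes, of which 4 were called lower. Sox10, which sets Schwann cell identity, was at 2.17, 1.80 and 3.30 CPM in p16+ and 10.6, 4.99 and 8.51 CPM in p16-, a log2 fold change of -1.73 (SE 0.29). The neural crest factor Foxd3 was at 0.330, 0.408 and 0.963 against 4.22, 3.00 and 4.24 CPM, a log2 fold change of -2.75 (SE 0.41). Every p16- library of Foxd3 was above its highest p16+ library, and without that library, p16+ replicate 3, the log2 fold change was -3.36. Erbb3, the receptor that binds neuregulin, was at 2.50, 2.58 and 3.73 against 12.4, 9.75 and 10.9 CPM, with a log2 fold change of -1.91 (SE 0.20).

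Cdh19, a cadherin typical of Schwann cell precursors and adult Schwann cells, was at 3.35, 3.48 and 3.82 CPM in p16+ and 15.3, 9.55 and 19.2 CPM in p16-, a log2 fold change of -2.05 (SE 0.22). The p16- libraries spread about a mean of 14.7 ± 4.87 CPM (SD, n = 3), more than the p16+ libraries at 3.55 ± 0.242 CPM. S100b, the calcium-binding protein used to stain Schwann cells, differed less, at 9.26, 8.52 and 8.29 against 15.8, 10.8 and 9.59 CPM, a log2 fold change of -0.48 (SE 0.18) that was not called. Without p16- replicate 3 it was called, at -0.62, as it was with library sizes alone in place of TMM factors (-0.55) or with no filter. Dhh, the hedgehog ligand that Schwann cells send to the nerve sheath, was near the limit of detection, at 0.247, 0.626 and 0.292 against 1.01, 0.857 and 0.752 CPM, a log2 fold change of -1.16 (SE 0.62) that was not called. Its value was -1.68 without p16+ replicate 2, and 25.2% of its exonic length overlaps Gm49442 and Rhebl1, where fragments cannot be assigned to one gene.

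**Figure D2:**
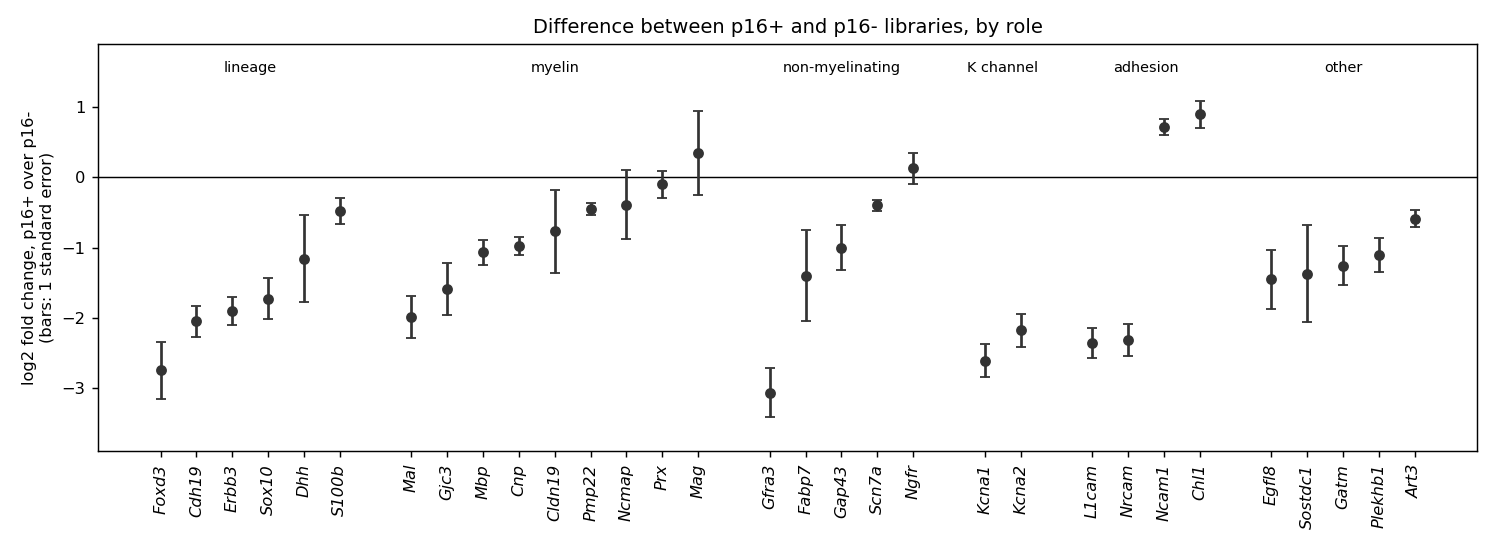
Log2 fold change of p16+ over p16- for the 31 tested genes, by role. Points are estimates of the edgeR model and bars are 1 standard error on each side. Values run from -3.07 for Gfra3 to 0.90 for Chl1, and the widest bars belong to genes near 1 CPM or below such as Sostdc1, Fabp7, Dhh, Mag and Cldn19.

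Of the 9 tested myelin genes, 5 were called lower in p16+ and the others were not called. Mbp, the basic protein that compacts myelin, was at 18.8, 15.1 and 17.6 CPM in p16+ and 48.5, 26.3 and 33.2 CPM in p16-, a log2 fold change of -1.07 (SE 0.18). Cnp, a phosphodiesterase of the cytoplasmic channels in myelin, was at 19.4, 16.8 and 14.9 against 35.1, 28.2 and 37.5 CPM, with a log2 fold change of -0.98 (SE 0.13). Mal, a proteolipid of myelin membrane transport, had one of the larger differences among the myelin genes, at 1.37, 1.03 and 1.17 against 5.62, 3.48 and 5.13 CPM, a log2 fold change of -1.99 (SE 0.30). The gap junction gene Gjc3 was at 0.880, 0.871 and 2.07 against 4.27, 2.85 and 4.38 CPM, with a log2 fold change of -1.59 (SE 0.37). In each of these 4 genes all p16- libraries lay above all p16+ libraries.

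Pmp22, a peripheral myelin protein that many other cell types also express, was the most abundant member. It was at 266.5, 243.2 and 271.6 CPM in p16+ and 352.1, 348.4 and 364.9 CPM in p16-, a log2 fold change of -0.45 (SE 0.08) without overlap of the groups. The other 4 tested myelin genes were not called and their groups overlapped. Among them Prx, the periaxin that anchors the Schwann cell membrane to its basal lamina, was at 7.40, 8.11 and 8.08 against 10.5, 6.15 and 8.57 CPM, with a log2 fold change of -0.10 (SE 0.19). Its sign depended on the libraries used, at 0.10 without p16- replicate 1 and -0.28 without p16- replicate 2. Mag, an axon-facing adhesion protein of myelin, had a log2 fold change of 0.35 (SE 0.60) at a mean of 0.784 CPM in p16+ and 0.614 CPM in p16-. Cldn19, a claudin of Schwann cell tight junctions, had -0.77 (SE 0.59) at means of 1.01 and 1.73 CPM, and Ncmap, a protein of non-compact myelin, -0.39 (SE 0.49) at 0.953 and 1.25 CPM.

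Genes of non-myelinating Schwann cells held both the largest difference of all members and one of the smallest. Gfra3, the receptor subunit for artemin, was at 0.467, 0.653 and 1.46 CPM in p16+ and 7.96, 7.54 and 6.04 CPM in p16-, a mean 8.35 times as high in p16- cells, with a log2 fold change of -3.07 (SE 0.35). Without p16+ replicate 3, its highest p16+ library, that value was -3.67. Ngfr, the low-affinity neurotrophin receptor p75, showed no such gap, at 10.4, 6.94 and 6.04 against 6.09, 6.48 and 8.76 CPM, with overlapping groups and a log2 fold change of 0.13 (SE 0.22). Leaving out p16+ replicate 1 gave -0.13 and leaving out p16- replicate 3 gave 0.31.

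Scn7a, a sodium channel gene of non-myelinating Schwann cells, was the second most abundant member per length, and which cells it came from was not tested. It was at 196.4, 202.2 and 218.4 CPM in p16+ and 266.2, 276.0 and 272.9 CPM in p16-, a log2 fold change of -0.40 (SE 0.08) without overlap. Gap43, a growth-associated protein of axons and of denervated Schwann cells, was at 3.05, 2.01 and 1.34 against 4.47, 3.28 and 5.13 CPM, with a log2 fold change of -1.0 (SE 0.32). Its call ended when p16+ replicate 2 (-0.96) or 3 (-0.76) or p16- replicate 1 (-0.97) or 3 (-0.85) was left out. Fabp7, a fatty-acid-binding protein of immature glia, was at 0.660, 0.218 and 0.263 against 1.03, 0.554 and 1.45 CPM, with overlapping groups and a log2 fold change of -1.40 (SE 0.65) that was not called.

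The 2 potassium channels, which sit beside the nodes of myelinated axons and are also made by glia, had close differences. Kcna1 was at 1.10, 1.22 and 1.55 CPM in p16+ and 8.62, 7.18 and 7.84 CPM in p16-, a log2 fold change of -2.61 (SE 0.24). Kcna2 was at 5.25, 3.40 and 2.48 against 14, 14.6 and 21.8 CPM, a log2 fold change of -2.18 (SE 0.24). The order of the p16+ libraries was not the same, since replicate 3 was the highest of p16+ for Kcna1 and the lowest for Kcna2. Markers of neurons, whose axons carry these channels too, were also looked at, and an axonal source of the channel RNAs was not tested. Snap25 and Chat had 0 counts in all 6 libraries. The summed level of the 11 genes of the list was 17.4 to 18.6 CPM in p16+ and 16 to 19.6 CPM in p16-. Most of each sum was Tubb3 and Uchl1, at means of 6.65 and 5.61 CPM in p16+ and 6.36 and 7.10 CPM in p16-. The sum therefore does not follow the neurofilament genes. Of the 6 that were tested, 3 had a lower estimate in p16+, 0 were called lower by edgeR or DESeq2, and 2 were lower at an unadjusted p under 0.05. These were the neurofilament genes Nefl, at -2.51 (SE 1.03), and Nefm, at -1.33 (SE 0.58). Nefl had means of 0.119 CPM in p16+ and 0.699 CPM in p16-. Nefm had 0.407 and 1.03 CPM, and its groups did not overlap. Nefl was called lower when p16+ replicate 1 was left out (adjusted p = 0.019). Of the exonic length of Nefl, 32.8% overlaps Nefm, and of that of Nefm, 19.2% overlaps Nefl. Stmn2, a tubulin-binding protein, was called higher at 0.85 (SE 0.27, adjusted p = 0.0413). That call was lost without p16+ replicate 2 or 3 (0.0871 and 0.179) or p16- replicate 2 or 3 (0.0901 and 0.14). It was also lost with library sizes alone in place of TMM factors (0.0609) and with a replicate block (0.0537).

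**Figure D3:**
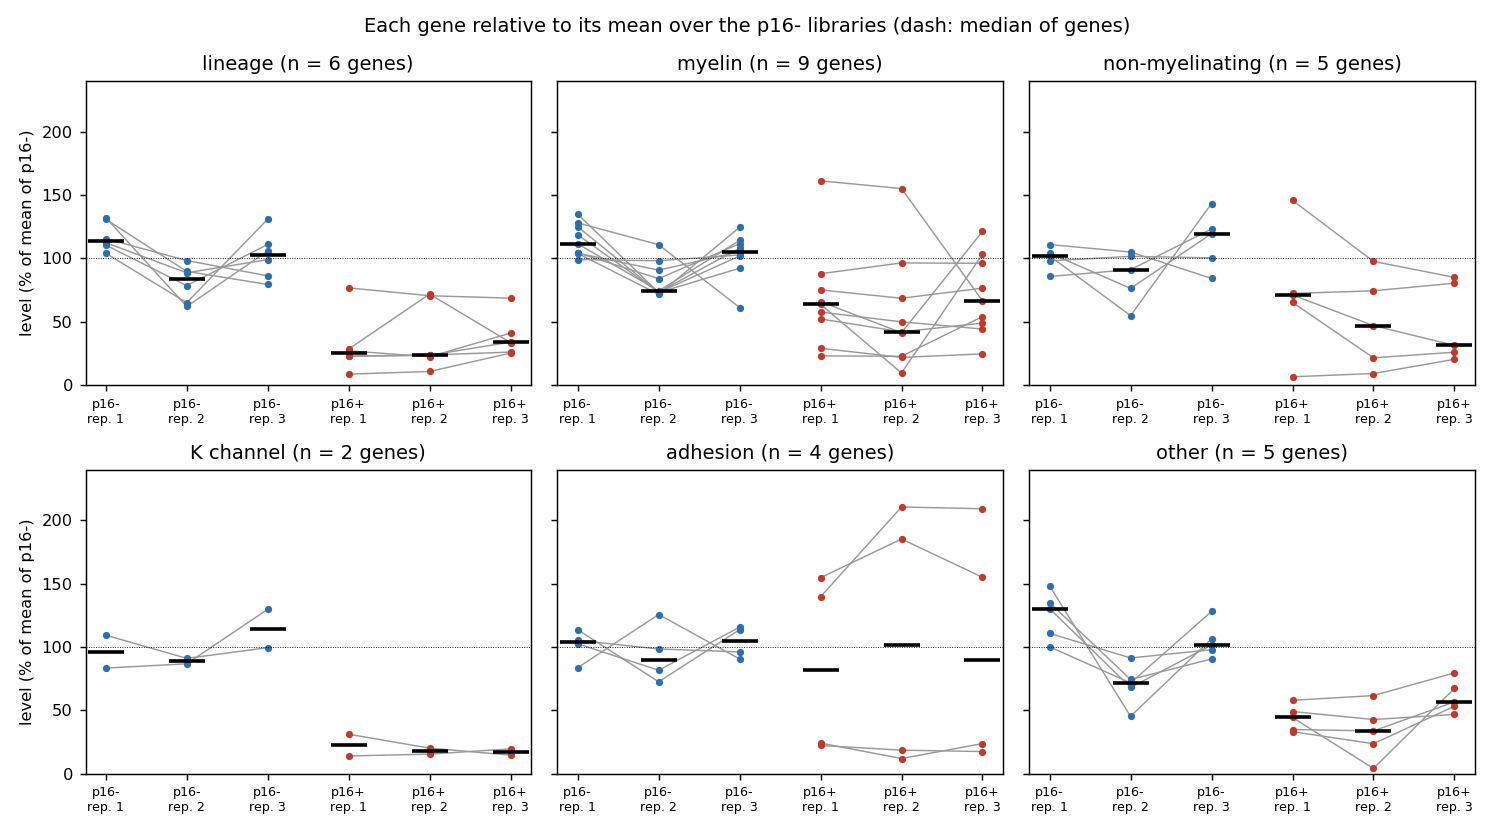
Level of each gene in each library as a percentage of its mean over the 3 p16- libraries, by role. Lines join the values of 1 gene and thick dashes mark the median of the genes of a role. For the lineage genes the medians are 114.0, 83.6 and 102.4 in p16- and 24.9, 23.6 and 33.7 in p16+, and the adhesion genes split into a pair far below and a pair above 100.

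Adhesion molecules of the immunoglobulin superfamily, which hold Schwann cells and axons together, differed in opposite directions. L1cam, expressed by axons and by non-myelinating Schwann cells, was at 2.94, 2.45 and 2.31 CPM in p16+ and 15, 9.58 and 15 CPM in p16-, a log2 fold change of -2.36 (SE 0.21). Nrcam, a relative of L1cam that gathers at the nodes of Ranvier, was at 4.51, 2.23 and 4.44 against 19.1, 15.2 and 21.6 CPM, a log2 fold change of -2.32 (SE 0.23). Both were lower in every p16+ library than in any p16- library. The upstream sequences of both are printed above.

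Chl1, the close homolog of L1cam, differed the other way, at 90.9, 137.1 and 136.2 CPM in p16+ and 54.5, 81.8 and 59.0 CPM in p16-. Its log2 fold change was 0.90 (SE 0.19), and its call was lost without p16- replicate 1, at 0.79. Ncam1, the neural cell adhesion molecule, was at 28.0, 33.6 and 28.1 against 19.1, 17.8 and 17.4 CPM, a log2 fold change of 0.72 (SE 0.11). The groups of both genes did not overlap. Per length, Chl1 was at 9.88 RPKM in p16+ and 5.29 RPKM in p16-, and Ncam1 at 3.45 and 2.09 RPKM. In the same order L1cam was at 0.349 and 1.79 RPKM and Nrcam at 0.279 and 1.39 RPKM, so the pair that was higher in p16+ was also the more abundant pair in both groups.

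Ncam1 is also made by satellite cells, the stem cells of muscle, and some of their markers were higher in p16+ cells as well. Of 6 markers tested, 2 were called higher and 0 lower: Cdh15, a muscle cadherin, at a log2 fold change of 1.03 with an SE of 0.25 and an adjusted p of 0.00767, and Pax7, the satellite cell factor, at 0.97 (SE 0.27, adjusted p = 0.0184). Cdh15 was not called without p16+ replicate 1 (0.0517), and Pax7 was not called when p16+ replicate 1 (0.0894) or 2 (0.082) or p16- replicate 3 (0.0863) was left out. The summed level of the 6 was 24.0 to 30.4 CPM in p16+ and 14.8 to 26.1 CPM in p16-, and no marker was at 0 in all libraries. The part of these cells in the difference of Ncam1 was not tested.

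The 5 further members have mixed roles and were all lower in p16+ cells by their estimates. Art3, an ADP-ribosyltransferase family gene, was at 22.0, 23.5 and 30.2 CPM in p16+ and 42.1, 34.7 and 37.2 CPM in p16-, a log2 fold change of -0.59 (SE 0.12). Plekhb1, a pleckstrin-domain protein, was at 3.49, 3.05 and 3.33 against 9.60, 5.29 and 6.45 CPM, a log2 fold change of -1.11 (SE 0.24). Gatm, an enzyme of creatine synthesis, was at 2.39, 2.31 and 3.88 against 8.92, 4.66 and 6.96 CPM, a log2 fold change of -1.26 (SE 0.28). The groups of these genes did not overlap.

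Egfl8, a secreted protein with epidermal growth factor repeats, was at 1.18, 0.843 and 1.9 CPM in p16+ and 5.28, 1.61 and 3.79 CPM in p16-, so that p16+ replicate 3 was above p16- replicate 2. Its log2 fold change was -1.45 (SE 0.42), and the call ended when p16+ replicate 1 (-1.38) or 2 (-1.21) or p16- replicate 1 (-1.04) or 3 (-1.40) was left out. A share of 40.7% of its exonic length overlaps Agpat1 and Gm20460. Sostdc1, an antagonist of BMP and Wnt signals, was at 0.577, 0.0544 and 0.875 against 1.30, 0.932 and 1.67 CPM, a log2 fold change of -1.37 (SE 0.69) that was not called.

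The libraries of a group also differed among themselves, and the p16- libraries did so in one order for many of the members. In p16- cells, replicate 2 was the lowest of the 3 for 22 of the 31 members (71.0%), against 33.7% of all tested genes. This was so for 4 of the 6 lineage genes, 8 of the 9 myelin genes and 5 of the 5 further genes, but for 2 of the 5 non-myelinating genes. The p16+ libraries had no order that most members followed: replicate 3 was the highest for 15 of the 31 (48.4%), against 32.6% of all tested genes, and for 0 of the 4 adhesion genes. The median level of the lineage genes in p16- replicate 2 was 83.6% of the mean of its group, and the median of the myelin genes was 74.3%, still above the 66.5% of the highest p16+ library. Genes of 1 library share its cells and depth, so these counts are a description and not independent evidence.

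Other genes of Schwann cells, from a list of 22 that holds no member, were split in direction. This list and the other lists given here were chosen with earlier results of these data known. Their p-values and counts are therefore a description and not independent tests. Over all tested genes, 8.04% were called lower and 8.69% higher, which stands beside the counts of every list. Of 19 that were tested, 7 were called lower and 3 higher in p16+, with a median log2 fold change of -0.55. Cadm4, the adhesion molecule that Schwann cells use to bind axons, was lower at 3.88, 3.73 and 8.35 CPM in p16+ against 13.7, 11.6 and 14.4 CPM, a log2 fold change of -1.32 with an SE of 0.25 and an adjusted p of 0.00141. Matn2, a matrix protein of nerve, was higher at 193.1, 196.2 and 208.9 against 104.9, 119.3 and 119.4 CPM, a log2 fold change of 0.80 with an SE of 0.08 and an adjusted p of 3.61e-06. Ednrb, the endothelin receptor of neural crest cells, was higher too, at 33.1, 39.9 and 42.2 against 23.4, 17.5 and 22.6 CPM, a log2 fold change of 0.86 with an SE of 0.13 and an adjusted p of 0.000145. Matn2 and Ednrb are also made by cells other than glia. In p16+, replicate 3 was the highest library for 15 of the 19 genes (78.9%), and in p16- replicate 2 was the lowest for 11 (57.9%).

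Growth factors and regulators of injured Schwann cells were split in direction. Of 9 genes listed, 7 were tested, 1 was called lower and 4 higher, and 2 were called higher when p16+ replicate 2 or 3 or p16- replicate 2 or 3 was left out. Clcf1, a cytokine of the interleukin-6 family, was higher in p16+ by 0.70 on the log2 scale (SE 0.16, adjusted p = 0.0047). Bdnf, brain-derived neurotrophic factor, was higher at 1.09 (SE 0.28, adjusted p = 0.0119), a call lost without p16+ replicate 2 (0.0535), and 14.4% of its exonic length overlaps Gm45346.

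Artn, which encodes the ligand of the receptor subunit Gfra3, was at 2.01, 2.75 and 6.94 CPM in p16+ and 1.57, 1.49 and 1.34 CPM in p16-, a log2 fold change of 1.41 with an SE of 0.40 and an adjusted p of 0.025. Its receptor gene was lower in the same libraries. Without p16+ replicate 3, the highest of the p16+ libraries for Artn, the log2 fold change was 0.69 (adjusted p = 0.278). The call was also lost without p16- replicate 2 (0.0504) or p16- replicate 3 (0.0848). Gdnf, the glial-cell-derived factor and the remaining gene called higher, was outside the naming rule and chosen after its values were seen, at a log2 fold change of 0.79 with an SE of 0.25 and an adjusted p of 0.0376. It was not called without p16+ replicate 1, 2 or 3 (0.0666, 0.11 and 0.108), p16- replicate 2 (0.0511) or p16- replicate 3 (0.132), or with library sizes alone (0.0587). The signal Shh and the transcription factor Olig1, both switched on in repair Schwann cells, were at or near the floor, with 0 counts of Shh in all libraries and 3 counts of Olig1 in 1 library.

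Neuregulins and their receptors, the pathway of the member Erbb3, gave 0 calls among 4 tested genes of 6 in edgeR and 0 in DESeq2. At an unadjusted p under 0.05 there was 1, Nrg1. Erbb2, the partner of Erbb3, had overlapping groups, at 29.9, 28.2 and 31.7 CPM in p16+ and 28.1, 30.2 and 30.6 CPM in p16-, a log2 fold change of 0.01 with an SE of 0.10, a 95% interval from -0.17 to 0.20 and an adjusted p of 0.943. Nrg1, the ligand, had a log2 fold change of 1.43 with an SE of 0.54 and an adjusted p of 0.0878 and was called where no filter on low counts was used (adjusted p = 0.0323). Nrg3 had 0 counts in all libraries. Beside them, the member Erbb3 had a mean of 2.94 CPM in p16+ and 11.0 CPM in p16-.

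**Figure D4:**
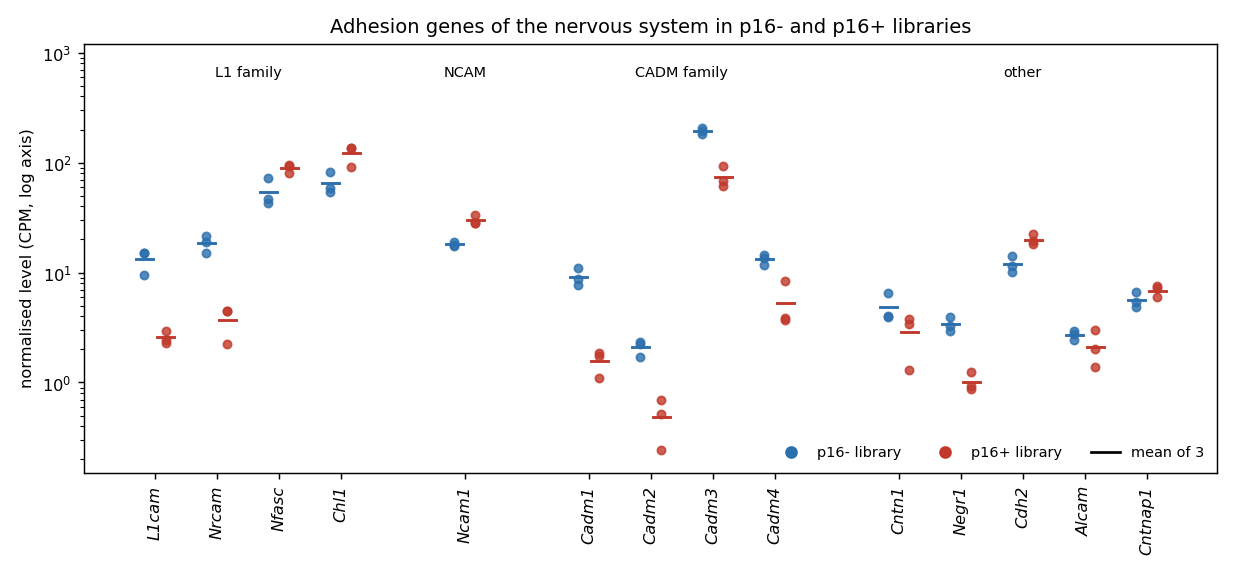
Adhesion genes of the nervous system, members and others, in the 6 libraries, in CPM on a log axis. Points are libraries (blue p16-, red p16+) and dashes the mean of 3. L1cam, Nrcam and the genes of the CADM family lie lower in p16+, and Chl1, Nfasc, Ncam1 and Cdh2 lie higher.

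Other neural adhesion genes were also split in direction. Of 16 genes listed, 11 were tested, and 5 were called lower and 2 higher, against 8.04% and 8.69% of all tested genes. The median log2 fold change of -0.76 does not depend on the fitted value of Cntn6, which is at 0 in p16+. Cadm3, a synaptic and axonal adhesion molecule, was lower in p16+ at 92.6, 68.6 and 60.7 against 184.0, 194.8 and 206.3 CPM, a log2 fold change of -1.40 with an SE of 0.12 and an adjusted p of 1.04e-06. Its relative Cadm1 was at 1.73, 1.09 and 1.84 against 10.9, 7.69 and 8.76 CPM, a log2 fold change of -2.55 with an SE of 0.25 and an adjusted p of 2.82e-06. Negr1, a GPI-anchored adhesion molecule of neurons, was lower by its log2 fold change of -1.74 (SE 0.33, adjusted p = 0.0013). Cdh2, N-cadherin, was higher at a mean of 19.9 CPM in p16+ against 11.9 CPM in p16-, a log2 fold change of 0.75 with an SE of 0.14 and an adjusted p of 0.00132.

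The members of the L1 family were completed by Nfasc, neurofascin, which was chosen after its values were seen. It was at 80.0, 95 and 92.7 CPM in p16+ and 43.0, 72.5 and 46.2 CPM in p16-, a log2 fold change of 0.73 with an SE of 0.18 and an adjusted p of 0.0195, and the call ended when p16+ replicate 2 (0.0549) or 3 (0.0534) or p16- replicate 1 (0.105) was left out. The family therefore had L1cam and Nrcam lower and Chl1 and Nfasc higher in p16+ cells. Cntn6, a contactin also chosen after its values were seen, had 0 counts in the 3 p16+ libraries and 19, 29 and 18 in p16-, so that it was at least 6.68-fold lower in p16+ against a floor of 3 counts per library (adjusted p = 0.00282). Its relatives Cntn3 and Cntn5 had 0 counts in all libraries.

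Cells of the nerve sheath were looked at because they are stromal and lie beside Schwann cells. Of 10 genes of perineurial and endoneurial cells, 9 were tested, 2 were called lower and 3 higher, and their summed level was 188.0 to 223.9 CPM in p16+ and 211.6 to 258.5 CPM in p16-. Krt19, a keratin, was lower at 5.31, 3.26 and 3.59 against 20, 19.9 and 19.8 CPM, a log2 fold change of -2.29 with an SE of 0.18 and an adjusted p of 2.92e-07. Cldn1, the claudin of the perineurial barrier, was higher at 11.1, 11.6 and 15 against 3.93, 3.40 and 2.95 CPM, a log2 fold change of 1.87 with an SE of 0.19 and an adjusted p of 3.89e-06. Wif1, a secreted Wnt inhibitor, was higher at 1.44 (SE 0.22, adjusted p = 0.00023), and Osr2, a transcription factor, was lower at -0.55 (SE 0.12, adjusted p = 0.00417), a call lost without p16- replicate 1 (0.108). Whether these cells had a part in the differences of the members was not tested.

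Markers of the other cell types that the gate could hold differed in several directions. For melanocytes, which share Sox10 and Erbb3 with Schwann cells, summed levels were 52.8 to 58.2 CPM in p16+ and 61.6 to 65.5 CPM in p16-. Most of each sum was Mitf, at means of 46.1 CPM in p16+ and 56.7 CPM in p16-. Of these 6 markers, 3 were tested and 1 was called lower, the factor Mitf at -0.30 (SE 0.08, adjusted p = 0.0161), a call that ended when p16+ replicate 2 (0.0939) or 3 (0.0591) or p16- replicate 3 (0.0742) was left out. Mlana, chosen after its values were seen, was not called in the full set (adjusted p = 0.137). It was called higher without p16- replicate 1 (0.000172), with no filter on low counts (0.00157) or with a replicate block (0.0429). The pigment enzyme genes Dct and Tyr had at most 3 counts in any library. Tyrp1, of the same kind and not tested, had 0, 0 and 1 counts in p16+ and 0, 10 and 5 in p16-. Muscle fibre genes gave 0 calls among 7 in edgeR and DESeq2 and 0 at an unadjusted p under 0.05, with Acta1, skeletal actin, at a log2 fold change of 0.22 (adjusted p = 0.646). Their summed levels overlapped, at 16.2 to 27.5 CPM in p16+ and 16.9 to 22.9 CPM in p16-. Of 5 epithelial genes 1 was tested, Cdh1, and it was not called by edgeR (-2.06, adjusted p = 0.0877, unadjusted p = 0.0182) or DESeq2. Summed epithelial levels were 0.137 to 0.463 CPM in p16+ and 0.671 to 1.5 CPM in p16-.

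Leukocyte genes had 2 of 6 called higher, Csf1r at 1.17 (adjusted p = 7.32e-05) and Lyz2 at 0.43 (adjusted p = 0.00183), and 4 were called higher without p16- replicate 2. Their summed levels were 213.6 to 239.2 CPM in p16+ and 150.8 to 170.7 CPM in p16-. Of the exonic length of Csf1r, 15.1% overlaps Hmgxb3. Endothelial genes had 3 of 6 called higher and 1 lower: Tek was lower at -1.77 (adjusted p = 5.24e-08), and Flt1 (1.11, adjusted p = 0.00172), Pecam1 (1.01, adjusted p = 0.00871) and Vwf (1.26, adjusted p = 0.0257) were higher. Pecam1 (0.0621) and Vwf (0.151) were not called without p16+ replicate 3, nor Vwf without p16- replicate 1 (0.0603). The summed level of the endothelial genes, most of it Tek, was 78.1 to 97.3 CPM in p16+ and 173.8 to 207.4 CPM in p16-. Mural cell genes, summing to 1701.6 to 1715.7 CPM in p16+ and 1136.4 to 1429.8 CPM in p16-, had 4 of 7 called higher, among them Notch3 at 0.77 (adjusted p = 1.27e-05) and Des at 0.79 (adjusted p = 1.85e-05), and fibroblast genes 3 higher and 2 lower of 7, with Col1a2 at 0.77 (adjusted p = 8.83e-06) and Cd34 at -0.70 (adjusted p = 2.14e-05). Summed fibroblast markers, most of the sum Col1a2, stood at 33984 to 37067 CPM in p16- and 48596 to 49911 CPM in p16+. The sum therefore follows Col1a2 and not the fibroblast markers as a set. Dcn, the next most abundant, was not called, at means of 8737.3 CPM in p16- and 7878.1 CPM in p16+. The part of these cell types in the differences of the Schwann cell genes was not tested.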

How the data were processed

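The data are bulk RNA-seq of 6 libraries, 3 per group, with the group taken from the sample titles. The deposited values are raw counts per gene. Per the file headers, the authors counted read pairs over the exons of GENCODE vM21 with featureCounts 1.6.0 and no strand option. The submitters' processing notes name bcl2fastq, STAR 2.7.3a and the build GRCm38.p6. Symbols came from vM21, which matched all 55536 identifiers.

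Genes were filtered with filterByExpr, normalized by TMM and tested with the quasi-likelihood F test of edgeR 4.0.16 (R 4.3.3), with the group alone in the model and Benjamini-Hochberg adjustment over 15903 genes at a threshold of 0.05. SE is from that model. CPM uses TMM-scaled library sizes. A count of 3 is 0.0737 to 0.0875 CPM, and floors cover counting error only. Mitochondrial genes took 1.109% to 1.366% of counts. Replicates of a group differed by more than sampling noise, with a chi-square per gene of 12.02 to 40.15, where 1 is noise alone. Overlap with other genes is given where it exceeds 10% of exonic length. The test was tested on simulated data.

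Members and lists were chosen with earlier results of these data known. Values in every library are given for the 3 most abundant members of each role and for members with a log2 fold change of at least 1 in size, and the other members are given by mean or by library. Of each further list up to 4 genes past the threshold with the smallest p are named, or the most abundant where none passed, and genes at 0 in all libraries. The values of some list members are not reported here. Alternatives were RLE and upper-quartile factors, library sizes alone, no filter, a filter of 1 CPM in 3 libraries, DESeq2 1.42.0, a replicate block and leaving out each library.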

Additional observations from a re-analysis of the deposited data

How the results depend on the processing

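The number of members called lower was 18 to 21 and that of all genes called was 1887 to 3114 over the alternatives, against 20 and 2660. The number of members called higher was 1 to 2 when 1 library was left out, since Chl1 was lost without p16- replicate 1. Of the 22 calls among members, 19 to 22 were kept in each alternative, and those lost when 1 library was left out were Egfl8, Gap43 and Chl1. Of 31 members, 29 had the same sign in every alternative that tested them, and Prx and Ngfr had both signs. There were 13 alternatives, or 12 for Dhh, Mag, Fabp7 and Sostdc1, which the stricter filter removed. Other Schwann cell genes called lower numbered 5 to 9, and other adhesion genes 4 to 6. With library sizes alone in place of TMM, the median log2 fold change of all genes moved from -0.01 to -0.08 and the share of calls on the higher side from 52.0% to 36.0%. With a replicate block 3114 genes were called, 20 members lower and 2 higher, Stmn2 was not called (adjusted p = 0.0537) and Mlana was called higher (0.0429). Whether the replicate numbers pair the libraries is not stated in the labels. Libraries of the same number correlated at 0.028, 0.082 and -0.005 in their deviations from the group means. Libraries of different numbers correlated at -0.069 to 0.039. Values this small cannot show whether libraries of the same number share an animal. Genes under 1 CPM rest on few counts, such as the 2 to 30 counts of Sostdc1 in p16+. Dhh, Fabp7, Cldn19, Mag and Sostdc1 were not called, and the cause was not tested.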
